A study of Homo sapiens with 8 samples.

Results

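The RNAs that RNA polymerase I and RNA polymerase III make were examined in fibroblasts undergoing oncogene-induced senescence. The rule named 6 genes: the 45S ribosomal RNA precursor (RNA45SN5), the RNA of RNase MRP (RMRP), the RNA of RNase P (RPPH1), the 7SK RNA (RN7SK) and the signal recognition particle RNAs (RN7SL1 and RN7SL2). Members were taken by the gene symbol of the rows of the count table, and 3 of the 6, RNA45SN5, RMRP and RPPH1, were found among its 27945 rows. RN7SK, RN7SL1 and RN7SL2 are not analysed here. All 3 members found passed the filter on low counts. The assay was fastGRO-seq, a nuclear run-on in which polymerases engaged in isolated nuclei extend their RNA with a labeled nucleotide and the labeled RNA is captured and sequenced. The cells were IMR90, a primary line of human lung fibroblasts, and there were 4 groups of 2 libraries. The control group is labeled wild type, with no shRNA. The 3 senescent groups expressed an inducible fusion of the estrogen receptor with oncogenic RAS (ER:RAS), which the study's methods switch on with 100 nM 4-hydroxytamoxifen, with harvest on day 6. They carried a control shRNA (shControl) or an shRNA against METTL3 or METTL14, the subunits of the RNA m6A methyltransferase complex. The methods list a single shRNA for each of these genes. The labels of the control cells name neither 4-hydroxytamoxifen nor an shRNA, nor whether these cells carry the ER:RAS construct. In a comparison with control, the effects of RAS, the drug, the construct and shRNA infection therefore cannot be told apart. The labels do not say whether the libraries of a group came from separate cultures, while the study describes its fastGRO-seq experiments as biologically independent. All came from 1 cell line.

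RNA polymerase I transcribes the tandem ribosomal DNA repeats into the 45S precursor, which is cut into 18S, 5.8S and 28S ribosomal RNA. RMRP is the RNA of RNase MRP, an enzyme that cuts the ribosomal precursor within its first internal spacer, and RPPH1 is the related RNA of RNase P, which removes the 5' leader of tRNA precursors. Both are short RNAs made by RNA polymerase III from promoters that lie entirely upstream of the gene: a distal element with an octamer bound by POU2F1, a proximal sequence element bound by the SNAPc complex, and a TATA box. The RNA of the signal recognition particle is also made by polymerase III, and the particle directs nascent secreted proteins to the endoplasmic reticulum. Senescent fibroblasts are known for a large secretory output and an enlarged nucleolus.

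The promoters of the 3 members are shown because they hold the elements through which the polymerases start these RNAs. Each window runs from 250 bases before to 50 bases after the annotated start, in hg19. RMRP was at chr9:35657748-35658015 on the minus strand and its window at chr9:35657966-35658265. RPPH1 was at chr14:20811230-20811570 on the minus strand and its window at chr14:20811521-20811820. RNA45SN5 was on the unplaced contig at chrUn_gl000220:105424-118780 on the plus strand and its window at chrUn_gl000220:105174-105473. Capitals mark matches to TATAA, to the octamer ATTTGCAT, to TCACCNTAA, which resembles part of the proximal sequence element, and to the cyclic AMP response element TGACGTCA.
RMRP promoter: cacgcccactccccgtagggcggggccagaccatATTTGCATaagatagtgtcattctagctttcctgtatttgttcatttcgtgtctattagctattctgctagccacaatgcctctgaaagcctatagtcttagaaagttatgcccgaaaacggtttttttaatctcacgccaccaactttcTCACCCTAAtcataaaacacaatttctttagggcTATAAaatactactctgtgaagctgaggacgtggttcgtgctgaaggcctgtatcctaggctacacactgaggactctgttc
RPPH1 promoter: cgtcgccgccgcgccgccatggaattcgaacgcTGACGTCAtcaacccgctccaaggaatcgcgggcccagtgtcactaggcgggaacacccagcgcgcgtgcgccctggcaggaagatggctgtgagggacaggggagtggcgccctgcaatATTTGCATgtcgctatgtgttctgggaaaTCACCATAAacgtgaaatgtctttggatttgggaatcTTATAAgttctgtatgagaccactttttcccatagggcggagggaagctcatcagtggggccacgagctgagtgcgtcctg
RNA45SN5 promoter: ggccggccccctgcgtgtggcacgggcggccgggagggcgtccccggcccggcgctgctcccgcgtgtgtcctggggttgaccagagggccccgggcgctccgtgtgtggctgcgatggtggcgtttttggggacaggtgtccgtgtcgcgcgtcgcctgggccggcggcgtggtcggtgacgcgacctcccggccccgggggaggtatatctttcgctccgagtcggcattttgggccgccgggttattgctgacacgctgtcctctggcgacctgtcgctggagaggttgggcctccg

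RMRP held TCACCCTAA from -66 to -58 and TATAA from -32 to -28, counted from the start, and its octamer lay far upstream, from -216 to -209. RPPH1 held TCACCATAA from -68 to -60 and TATAA from -30 to -26. Its octamer lay nearer, from -97 to -90, and TGACGTCA from -217 to -210. The TATAA of RPPH1 is also read on the opposite strand, 1 base further upstream. The 45S window held none of these letters on either strand and was 72.7% G and C, against 44.3% for RMRP and 57.3% for RPPH1. Over 35116 RefSeq promoter windows of the same length (GRCh38.p14), TCACCNTAA occurred in 0.444%, ATTTGCAT in 1.77%, TGACGTCA in 1.85% and TATAA in 20.4%. TTATATA (2.57%), CACGTG (7.26%), ACTACAA (2.77%), CCCAGCA (10.8%) and the A and B boxes of tRNA-type promoters (0.373% and 0.185%) were also searched, on both strands, and had no match in the 3 windows. TCACCNTAA was chosen after the windows were read. A match is a description of the letters, not a site or a cause. The 12 bases that follow the annotated end were TTTTTGTTCCCG for RMRP and TTTGGAAAAAAA for RPPH1. Polymerase III is known to stop at runs of T.

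Total counts per library ranged from 14897360 to 20306299, and ribosomal RNA rows took 78.5% to 84.2% of them. These 20 rows count the same reads several times, because the 5 copies of each gene are placed at the same bases or within a base of each other. Another row, LOC100507412 (chrUn_gl000220:97129-126696), spans the 45S row, exceeded it by 45 to 1747 counts per library, and took 36.1% to 52.8% of the counts outside the ribosomal rows. Outside both, the libraries held 1513930 to 2048475 counts. Levels are given as CPM, counts scaled to a common library size made of the counts outside ribosomal rows, after TMM, a factor that aligns the bulk of the rows. The counts did not separate the strands: of genes averaging 100 counts or more and lying inside a gene of the other orientation, 52 of 52 never had more counts than the enclosing gene. The variance between the 2 libraries of a group exceeded counting noise 1.72-fold in control cells, 2.79-fold in shControl cells, 8.09-fold in shMETTL3 cells and 4.07-fold in shMETTL14 cells. METTL3 was at 28.7 and 16.4 CPM with shControl and 5.07 and 5.52 CPM with shMETTL3 (log2 fold change -2.07, adjusted p = 1.7e-05, edgeR's quasi-likelihood test). METTL14 was at 8.95 and 9.78 CPM with shControl and 5.62 and 4.62 CPM in shMETTL14 cells, a difference that missed the threshold (log2 fold change -0.86, adjusted p = 0.073, edgeR's quasi-likelihood test). All 9 fibroblast markers had at least 10 counts in every library, with sums of 7380 to 26087 counts, whereas the 5 epithelial markers summed to 23 to 77, the 4 endothelial markers to 3 to 10 and the 5 leukocyte markers to 0 to 4. Of the 9 fibroblast markers, 7 fell and 1 rose from control to shControl cells, 3 fell and 1 rose with shMETTL3, and 7 fell with shMETTL14 (edgeR). Of all tested rows 12.5%, 12.4% and 12.3% were called lower and 14.2%, 11.3% and 9.01% higher in these comparisons. Spike-in reads were not used here, so every fold change is relative to the other rows of the same library.

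The 45S row was higher in senescent shControl cells than in control cells and lower again with shMETTL3. It measured 409110 and 408988 CPM in control, 631558 and 577729 CPM in shControl cells, 395779 and 336083 CPM in shMETTL3 cells, and 438584 and 489421 CPM in shMETTL14 cells. Both shControl libraries stood above all 6 others, the shMETTL3 libraries were the lowest pair, and the shMETTL14 libraries lay between control and shControl. In bulk nuclei, fewer cells that transcribe a gene and less RNA per cell cannot be told apart.

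From control to senescent shControl cells, all 3 members analysed were called higher by edgeR's quasi-likelihood test at a Benjamini-Hochberg adjusted p below 0.05, where 26.7% of 12679 tested rows were called, 14.2% higher and 12.5% lower. The 45S row rose by a log2 fold change of 0.56 (edgeR, standard error, SE, 0.14, adjusted p = 0.0039), or 1.48-fold, and 81.5% of tested rows had a lower fold change. The median of all tested rows was -0.00. It was 0.64 and still called without shControl replicate 2, but the call was lost without control replicate 1 (0.58, adjusted p = 0.084, edgeR), without control replicate 2 (0.58, adjusted p = 0.078) and without shControl replicate 1 (0.50, adjusted p = 0.067).

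With shMETTL3, 2 of the 3 members were called against shControl, 1 higher and 1 lower, where 23.7% of all tested rows were called, 11.3% higher and 12.4% lower. The 45S row was the one that fell, with a log2 fold change of -0.72 (edgeR, SE 0.14, adjusted p = 0.00053). Leaving out each library in turn gave -0.85 to -0.59 and kept the call. With shMETTL14, 0 of the 3 members passed, where 21.3% of rows were called, 9.01% higher and 12.3% lower. The 45S row came nearest there, with a log2 fold change of -0.38 (95% interval -0.68 to -0.09, adjusted p = 0.057, edgeR). It was the 1 member of 3 with an unadjusted value below 0.05 in edgeR, and the 1 member called by DESeq2 (adjusted p = 0.013). Without shMETTL14 replicate 1 it was -0.28 (adjusted p = 0.025, edgeR) and without replicate 2 it was -0.46 (adjusted p = 0.00022), both past the threshold. It was not called without shControl replicate 1 (-0.29, adjusted p = 0.35, edgeR) or without shControl replicate 2 (-0.43, adjusted p = 0.15).

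Set against each other directly, the knockdowns differed in 35.7% of tested rows. The 45S row was 0.34 higher on the log2 scale with shMETTL14 than with shMETTL3 (95% interval 0.05 to 0.64, adjusted p = 0.063, edgeR), short of the threshold. It passed without shMETTL3 replicate 1 (0.47, adjusted p = 0.0065, edgeR), without shMETTL14 replicate 1 (0.42, adjusted p = 0.00043) and without shMETTL14 replicate 2 (0.23, adjusted p = 0.030), but not without shMETTL3 replicate 2 (0.22, adjusted p = 0.29). Against control, the 45S row had a log2 fold change of -0.16 with shMETTL3 (adjusted p = 0.39, edgeR) and 0.18 with shMETTL14 (adjusted p = 0.33). By mean level the groups ran shMETTL3, control, shMETTL14, shControl, and no neighbors in that order differed past the threshold.

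**Figure D1:**
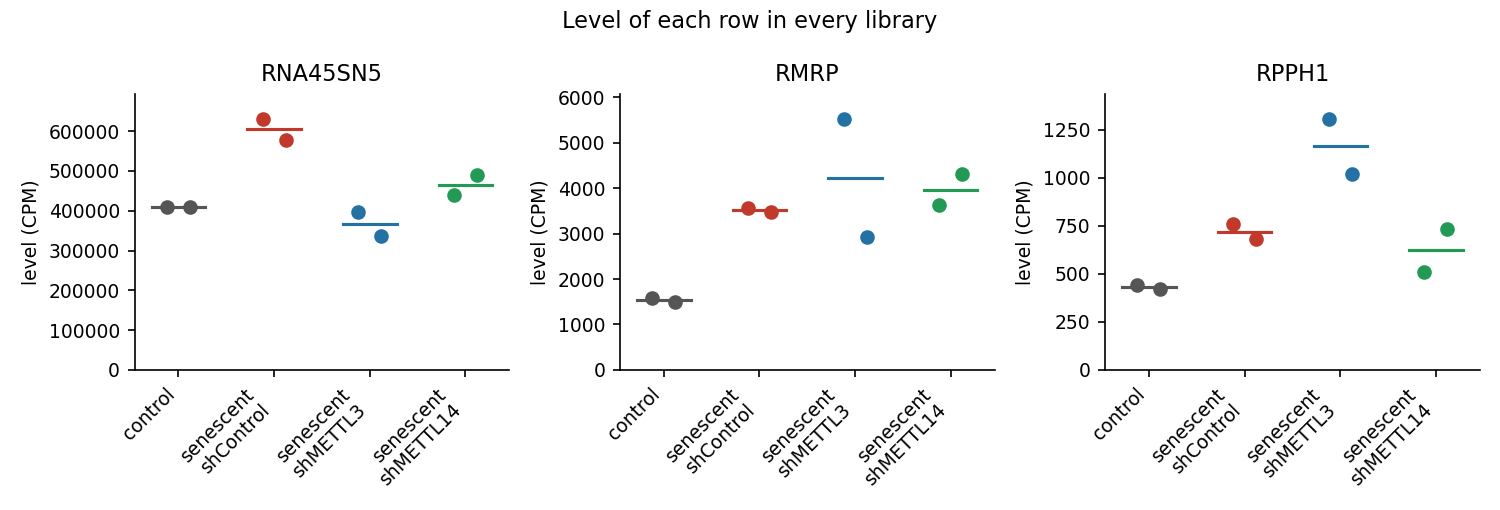
Level of RNA45SN5, RMRP and RPPH1 in CPM (scaled to the counts outside ribosomal rows, after TMM) in each of 8 libraries. Points are libraries and bars are the means of 2. The shControl libraries are highest for RNA45SN5 at 631558 and 577729 CPM, the shMETTL3 libraries lie far apart for RMRP at 5530 and 2926 CPM, and both are highest for RPPH1 at 1309 and 1020 CPM.

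The 45S row is mostly 28S sequence. The 28S gene took 98.5% to 99.1% of its reads in each library (exact 95% binomial intervals within 98.46% to 99.11%, which cover counting error only), so the row reports the mature region together with the precursor. The part outside 28S, which holds the spacers and the 18S and 5.8S regions, had 19558 and 22090 counts in control, 24180 and 14894 in shControl cells, 15893 and 11800 in shMETTL3 cells, and 16915 and 22513 in shMETTL14 cells. In raw counts the 2 shControl libraries lay on either side of both control libraries. Outside 28S, the change from control to shControl was 0.33 on the log2 scale (edgeR, SE 0.20, adjusted p = 0.25) and did not pass. The fall with shMETTL3 stood at -0.75 (edgeR, SE 0.20, adjusted p = 0.0089). In CPM this part measured 9020 and 5204 with shControl and 5037 and 3428 with shMETTL3. ShControl replicate 1 was 1.73 times replicate 2, and in raw counts shMETTL3 replicate 1 exceeded shControl replicate 2. Leaving out a library was not tried for this part. With shMETTL14 this part was -0.16 from shControl (adjusted p = 0.63, edgeR) and 0.59 higher than with shMETTL3 (adjusted p = 0.027).

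The other ribosomal rows were read beside it. The 28S row followed the 45S row, with log2 fold changes of 0.57, -0.72 and -0.38 in the 3 comparisons in the same order, and the last of these passed (adjusted p = 0.049, edgeR). The table counts 18S and 5.8S at 2 copies on the contig and places their rows at the copy outside the 45S row, 18S at chrUn_gl000220:153050-154918 and 5.8S at chrUn_gl000220:155996-156152. In every library the 18S row held more counts than the part of the 45S row outside 28S. It is therefore not a piece of the 45S row's counts. How the reads of 18S and 5.8S divide between the copies cannot be told apart. The first 60 bases of 28S also start again on the contig, at chrUn_gl000220:157320, with 4483 bases before its end. How the 28S reads, most of the 45S row, divide between these copies cannot be told apart either. The 18S row rose by 0.51 with shControl (adjusted p = 0.015, edgeR), fell by 0.81 on the log2 scale with shMETTL3 (adjusted p = 0.00042) and did not pass with shMETTL14 (-0.31, adjusted p = 0.16). Unlike these, the 5.8S row was far lower with shMETTL14 than in any other group, an observation singled out after its values were seen. Its raw counts were 1594 and 1365 in control, 1342 and 1435 in shControl cells, 1062 and 1271 in shMETTL3 cells, and 114 and 341 in shMETTL14 cells. Both shMETTL14 libraries lay below the other 6, and replicate 1 was 0.317 times replicate 2 in CPM, a wider ratio than in the other groups. The log2 fold change of 5.8S with shMETTL14 was -2.76 against shControl (edgeR, SE 0.26, adjusted p = 2.3e-08) and -2.26 against shMETTL3 (adjusted p = 3.0e-07).

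**Figure D2:**
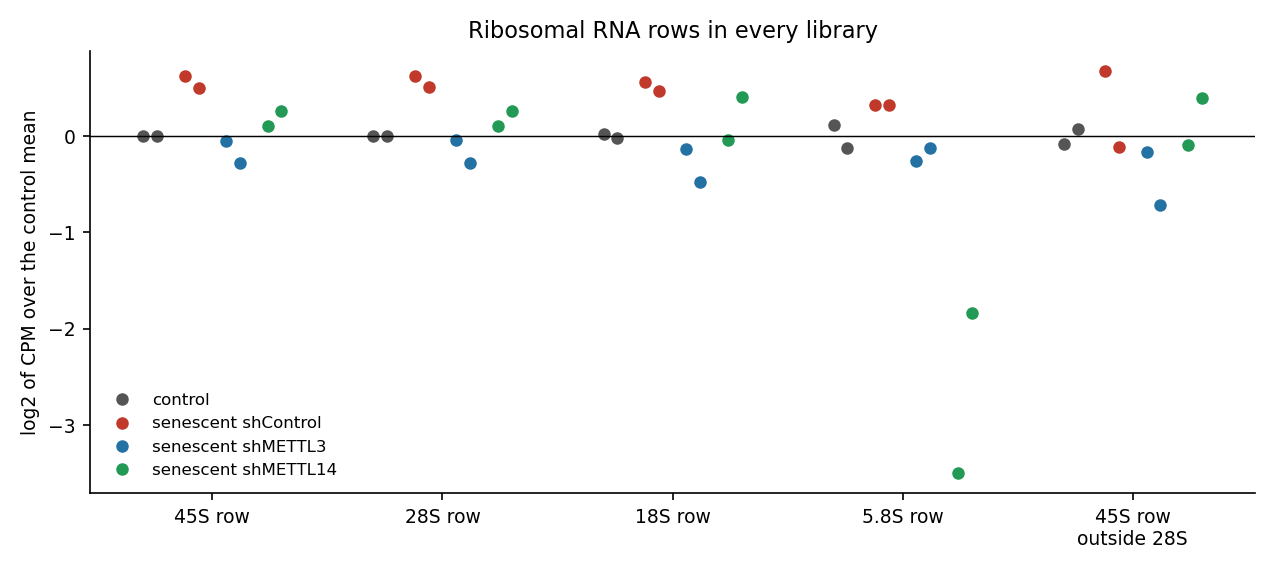
Ribosomal RNA rows in each library, as log2 of the CPM over the mean of the 2 control libraries. Points are libraries. The 45S, 28S and 18S rows move together, whereas the 5.8S row is at 35.6 and 113 CPM with shMETTL14 against a control mean of 402 CPM.

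RMRP was higher in all 6 senescent libraries than in either control library. It measured 1581 and 1487 CPM in control, 3567 and 3468 CPM in shControl cells, 5530 and 2926 CPM in shMETTL3 cells, and 3618 and 4316 CPM in shMETTL14 cells. The shMETTL3 libraries were the highest and the lowest of the 6 senescent ones. RMRP rose from control to shControl by a log2 fold change of 1.20 (edgeR, SE 0.19, adjusted p = 1.9e-05), or 2.29-fold, and 93.2% of tested rows had a lower fold change. Against shControl it was 0.27 with shMETTL3 (95% interval -0.12 to 0.65, adjusted p = 0.33, edgeR) and 0.17 with shMETTL14 (95% interval -0.21 to 0.56, adjusted p = 0.56), and neither passed. The intervals leave room for a change of either sign.

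The shMETTL3 value of RMRP depended on which library was used. Without shMETTL3 replicate 1 the log2 fold change against shControl was -0.27 (adjusted p = 0.18, edgeR), and without replicate 2 it was 0.67 (adjusted p = 0.0011). RMRP was 1.89 times higher in shMETTL3 replicate 1 than in replicate 2, whereas the same ratio was 1.06 in control, 1.03 in shControl and 0.838 in shMETTL14 cells. The direct difference between the knockdowns was -0.09 (adjusted p = 0.74, edgeR), and it became 0.44 without shMETTL3 replicate 1 (adjusted p = 0.017) and -0.49 without replicate 2 (adjusted p = 0.013). Against control, RMRP was called higher with shMETTL3 (log2 fold change 1.46, adjusted p = 6.4e-07, edgeR) and with shMETTL14 (1.37, adjusted p = 1.8e-06), comparisons in which 40.5% and 40.6% of tested rows were called. These contrasts share the control libraries with the comparison of shControl. By mean level the order was control, shControl, shMETTL14 and shMETTL3, and no neighbors among the last 3 differed past the threshold.

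RPPH1 rose in senescent shControl cells and was higher still with shMETTL3. It measured 440.0 and 422 CPM in control, 759 and 680 CPM in shControl cells, 1309 and 1020 CPM in shMETTL3 cells, and 509 and 737 CPM in shMETTL14 cells. Both shMETTL3 libraries stood above all others, and the shMETTL14 libraries spanned the level of shControl replicate 2. RPPH1 rose from control to shControl by a log2 fold change of 0.74 (edgeR, SE 0.16, adjusted p = 0.00086), or 1.67-fold. It rose further with shMETTL3, by 0.69 over shControl (edgeR, SE 0.16, adjusted p = 0.0020), and 88.8% of tested rows had a lower fold change. Leaving out a library gave 0.50 to 0.88, and without shControl replicate 2 the adjusted p was 0.063 at 0.65.

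With shMETTL14, RPPH1 was -0.21 from shControl (95% interval -0.53 to 0.12, adjusted p = 0.38, edgeR). This value hung on the shMETTL14 libraries: without replicate 1 it was 0.05 (adjusted p = 0.88), and without replicate 2 it was -0.49 and past the threshold (adjusted p = 0.028). The direct test between the knockdowns gave a log2 fold change of -0.90 for shMETTL14 against shMETTL3 (95% interval -1.23 to -0.58, adjusted p = 7.7e-05, edgeR). Leaving out each library in turn gave -1.22 to -0.66 and kept the call. With all libraries RPPH1 was the 1 member of 3 called by edgeR in that comparison, where 4532 of all rows were called. DESeq2, however, called 2 members, the 45S row among them, where it called 1062 of all rows higher and 1613 lower. Against control RPPH1 was 1.43 higher on the log2 scale with shMETTL3 (adjusted p = 5.7e-08, edgeR) and 0.53 higher with shMETTL14 (adjusted p = 0.0091). The last call was lost without shMETTL14 replicate 2 (0.25, adjusted p = 0.21) and without control replicate 2 (0.53, adjusted p = 0.079). By mean level the order was control, shMETTL14, shControl and shMETTL3, and of these neighbors shMETTL14 and shControl did not differ past the threshold.

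**Figure D3:**
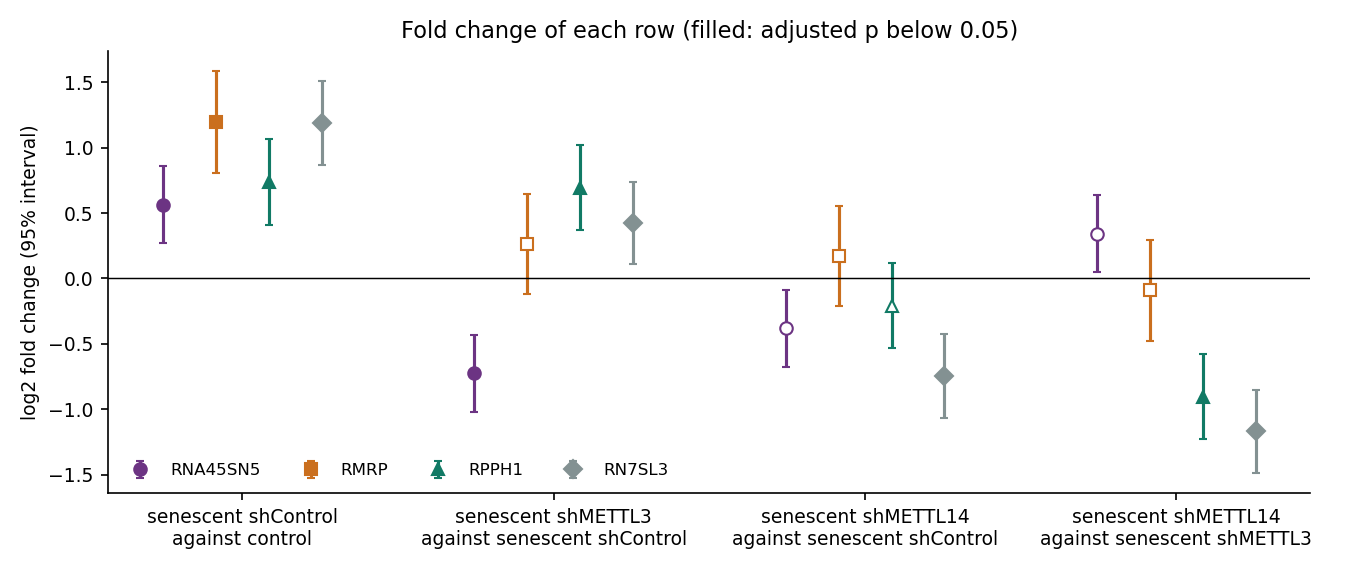
Log2 fold change of RNA45SN5, RMRP, RPPH1 and RN7SL3 in 4 comparisons (edgeR). Bars are 95% intervals and filled symbols passed an adjusted p below 0.05. All 4 rows lie above 0 from control to shControl, while with shMETTL3 RNA45SN5 is at -0.72 and RPPH1 at 0.69.

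The balance of RMRP and RPPH1 varied between groups. The ratio of their raw counts, which no scaling changes, was 3.59 and 3.52 in control, 4.70 and 5.10 in shControl cells, 4.22 and 2.87 in shMETTL3 cells, and 7.11 and 5.86 in shMETTL14 cells. Both shMETTL14 libraries had a higher ratio than all 6 others, and shMETTL3 replicate 2 had the lowest. Per kilobase, to compare the levels of the 2 RNAs, RMRP stood at 5744 ± 249 CPM per kb (SD, n = 2) in control against 1267 ± 37.7 for RPPH1, and at 13174 ± 261 against 2117 ± 164 in shControl cells. RMRP was the higher of the 2 in every library. Over the 8 libraries Pearson's r of log2 CPM was 0.77 for RMRP with RPPH1, 0.26 for RMRP with the 45S row and -0.11 for RPPH1 with the 45S row. These are descriptions over 8 libraries of 4 groups that share their scaling.

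Other short RNA rows were summed beside them. The 559 snoRNA, snRNA and scRNA rows of at most 400 bases, RN7SL3 among them, summed to 803 and 698 CPM in control, 1582 and 1448 CPM in shControl cells, 2882 and 1884 CPM in shMETTL3 cells, and 1678 and 2026 CPM in shMETTL14 cells. The summed level was highest in shMETTL3 replicate 1, as RMRP and RPPH1 were, and in the same library 29 of 32 such rows with a mean of at least 20 counts were above replicate 2, with a median difference of 0.84 on the log2 scale. In shMETTL14, 6 of the 32 were above replicate 2 in replicate 1, as against 20 with shControl and 25 in control. Their part in the values of RMRP and RPPH1 was not tested.

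**Figure D4:**
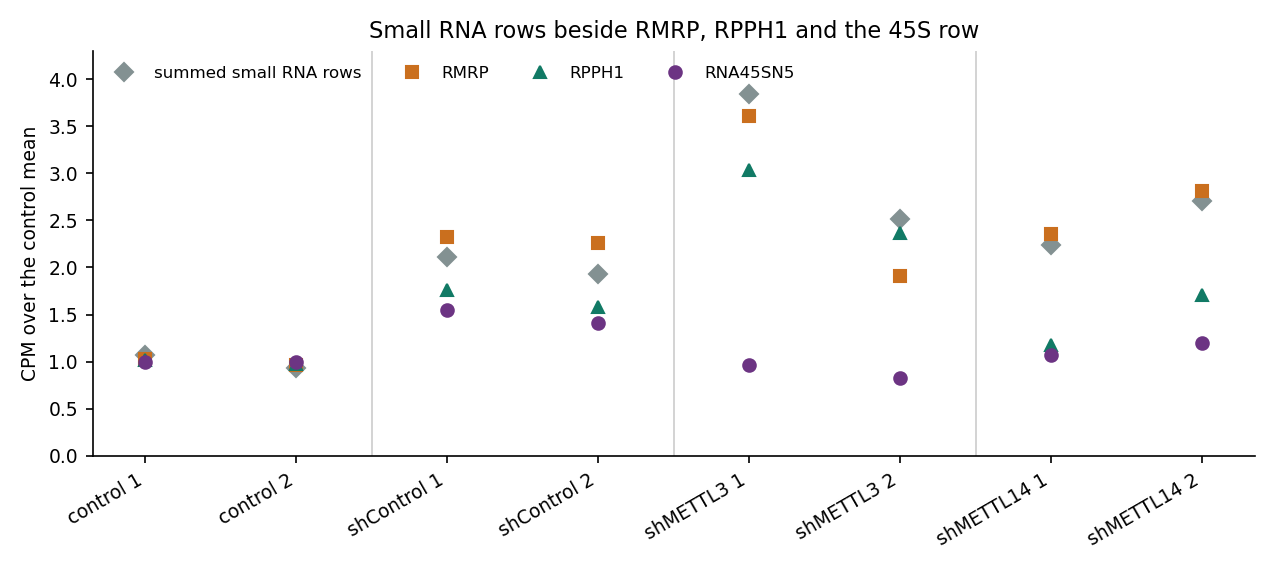
RMRP, RPPH1, RNA45SN5 and the sum of 559 small RNA rows in each library, as CPM divided by the mean of the 2 control libraries. Points are libraries. The small RNA sum is higher in replicate 1 of shMETTL3, as RMRP is (2882 and 1884 CPM for the sum), while RNA45SN5 lies below the control mean with shMETTL3.

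Of 16 other polymerase III RNAs listed, 10 had a row and 3 were tested, of which edgeR called RN7SL3 alone in each comparison with shControl. DESeq2 also called 1 of the 3 in each. Of all tested rows edgeR called 26.7%, 23.7% and 21.3% from control to shControl, with shMETTL3 and with shMETTL14. DESeq2 called fewer: 1147 higher and 797 lower, 901 and 640, and 499 and 876 in the same order. BCYRN1 had log2 fold changes of 0.17, -0.02 and -0.06 (adjusted p = 0.35, 0.92 and 0.80, edgeR) from control to shControl, with shMETTL3 and with shMETTL14, but its row spans 518927 bases, far more than that RNA. RNU6ATAC, with 2 to 32 counts per library, had 0.48, 0.83 and 0.78 (adjusted p = 0.67, 0.36 and 0.41, edgeR). RN7SL3, at chr14:50320334-50320632, was the signal recognition particle RNA row of the table. It measured 171 and 161 CPM in control, 400 and 357 CPM in shControl cells, 584 and 430 CPM in shMETTL3 cells, and 195 and 256 CPM in shMETTL14 cells. It rose from control to shControl (log2 fold change 1.19, adjusted p = 1.4e-06, edgeR), was higher still with shMETTL3 (0.42, adjusted p = 0.045) and fell with shMETTL14 (-0.75, adjusted p = 0.00090). In shMETTL3 cells RN7SL3 replicate 1 was 1.36 times replicate 2, and replicate 2 lay near shControl replicate 1 (430 against 400 CPM). In that replicate 1, 29 of 32 small RNA rows were above replicate 2. The knockdowns differed by -1.17 (adjusted p = 1.9e-06, edgeR). Reads of this row are uncertain because near-identical copies exist: within the span of RPS29 (chr14:50050291-50065428), a stretch at chr14:50053298-50053596 matched RN7SL3 at 292 of 299 bases, or 97.7%, and RefSeq places RN7SL1 within RPS29. The RPS29 row, which encodes a ribosomal protein, held 22290 to 34022 counts and had log2 fold changes of 0.41 (adjusted p = 0.035, edgeR), -0.55 (adjusted p = 0.0058) and -0.66 (adjusted p = 0.0014) in the same 3 comparisons. How its counts divide between the protein gene and the stretch inside it cannot be told apart.

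The genes next to the 2 polymerase III members gave few counts. CCDC107 starts 272 bases from RMRP on the opposite strand and was at 3.01 and 2.96 CPM in control, 9.33 and 7.34 CPM in shControl cells, 3.49 and 3.20 CPM in shMETTL3 cells, and 9.06 and 7.92 CPM in shMETTL14 cells. It rose from control to shControl (log2 fold change 1.47, adjusted p = 0.0086, edgeR) and fell with shMETTL3 (-1.31, adjusted p = 0.022), where RMRP was at 0.27 and was not called. PARP2, a DNA repair enzyme gene, starts 203 bases from RPPH1 on the opposite strand, had 7 to 19 counts per library, and passed in none of these 3 comparisons (adjusted p = 0.478 to 0.855, edgeR). ARHGEF39, the other row that reaches within 5 kb of RMRP, overlaps CCDC107 on the opposite strand and had 4 to 23 counts per library, so the reads of this pair cannot be told apart.

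The choice of the denominator changed calls of all 3 members. As a share of all counts the 45S row lay between 7.77% and 8.34% in every library, in which ribosomal rows made up most of the total. With the total of all rows as library size and no TMM, its change from control to shControl was 0.04 (adjusted p = 0.26, edgeR), while the median of all rows moved to -0.53, and its change with shMETTL3 was -0.08 (adjusted p = 0.015) against a median of 0.58. A change of library size shifts every row alike, so the distance of the 45S row from the median row is no separate support for its direction. With counts outside ribosomal rows and no TMM the first change was 0.23 (adjusted p = 0.089, edgeR), and the median of all rows was at -0.35. RPPH1 lost its rise from control to shControl with the total of all rows (0.21, adjusted p = 0.23, edgeR) and kept its rise with shMETTL3 under every scaling tried (0.63 to 1.34). RMRP kept its rise from control to shControl under every scaling (0.67 to 1.20), and it was past the threshold with shMETTL3 at 0.54 and 0.89 under the 2 scalings just described. With LOC100507412 removed and no TMM, the 45S row kept both calls, at 0.44 and -0.79.

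**Figure D5:**
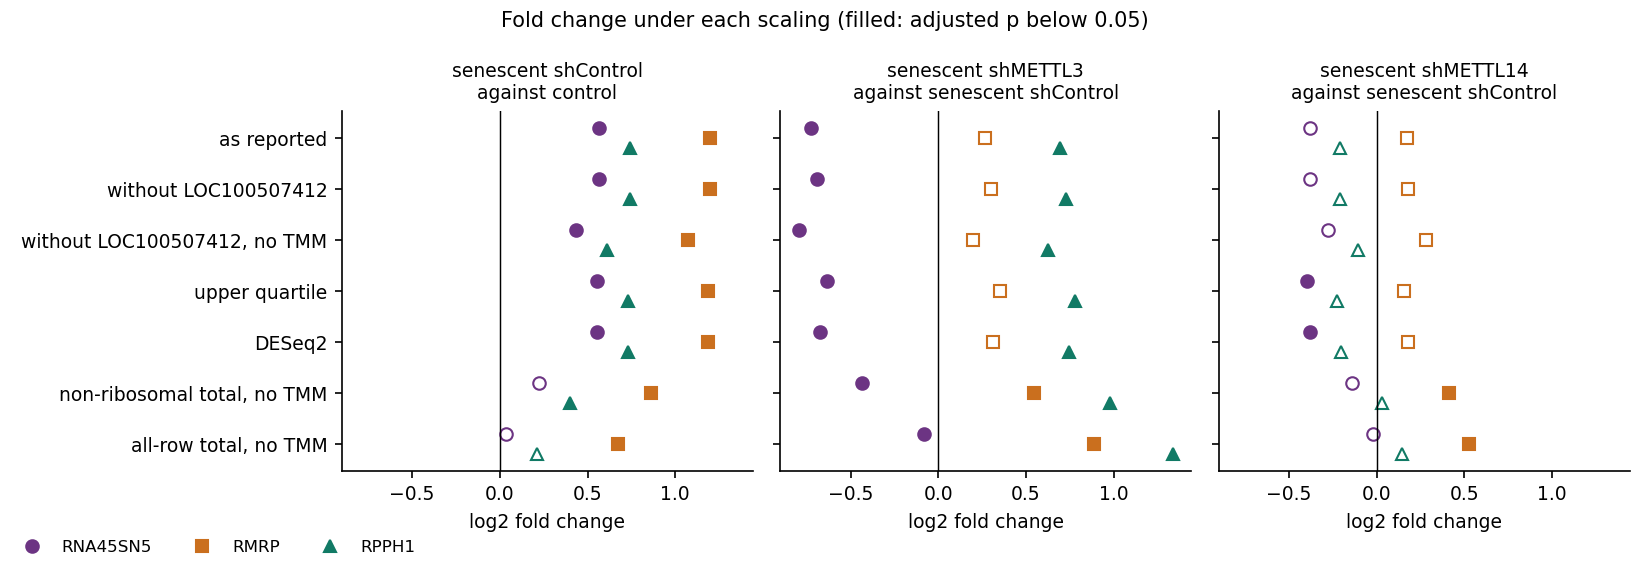
Log2 fold change of the 3 members in 3 comparisons under 7 ways of scaling and testing. Filled symbols passed an adjusted p below 0.05. The total of all rows brings RNA45SN5 to 0.04 from control to shControl and to -0.08 in shMETTL3 cells, while RMRP from control to shControl stays between 0.67 and 1.20.

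The protein genes that make these RNAs were read as lists beside them. Of all tested rows, edgeR called 26.7% from control to shControl cells, 23.7% with shMETTL3 and 21.3% with shMETTL14. DESeq2 called fewer: 1147 higher and 797 lower, 901 and 640, and 499 and 876 in the same order. List counts by DESeq2 are to be read beside its own numbers. Of 13 subunits of RNA polymerase III, 1 rose from control to shControl, POLR3A, the largest subunit (log2 fold change 0.57, adjusted p = 0.018, edgeR), where 14.2% of all rows were called higher. With shMETTL3, 0 subunits were called (median -0.38, with 2 at an unadjusted p below 0.05), and with shMETTL14, where 9.01% of all rows were called higher, 2 rose (median 0.38): CRCP (0.75, adjusted p = 0.017, edgeR) and POLR1D, a subunit shared with polymerase I (0.72, adjusted p = 0.021). The medians of all tested rows in these comparisons were -0.07 and -0.01. DESeq2 called 0 of the 13 in each of the 3 comparisons.

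Of 20 initiation factors and regulators of polymerase III, 6 rose from control to shControl and 0 fell, with a median of 0.34, where 26.7% of all rows were called, 14.2% higher. DESeq2 called 3 of the 20. The 6 were SNAPC1 (1.096, adjusted p = 0.0011, edgeR) and SNAPC3 (0.52, adjusted p = 0.044), subunits of the complex that binds the proximal sequence element, ZNF143 (0.97, adjusted p = 0.0016), an activator of small nuclear RNA promoters, GTF3C1 (0.53, adjusted p = 0.0054) and GTF3C4 (0.75, adjusted p = 0.016), subunits of TFIIIC, and SSB (0.59, adjusted p = 0.015), the La protein that binds the U-rich ends of polymerase III transcripts. With shMETTL3 POU2F1, the octamer-binding factor, rose (0.58, adjusted p = 0.011, edgeR) and SSB fell (-0.74, adjusted p = 0.0042). With shMETTL14 only SSB of these 20 was called, at -0.94 (adjusted p = 0.00062, edgeR). DESeq2 called 1 of the 20 in each knockdown. MAF1, the repressor of polymerase III, was not called in any of the 3 comparisons (0.29, -0.33 and 0.41).

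Of 13 polymerase I subunits and factors, 12 were tested. From control to shControl RRN3, which recruits polymerase I to its promoter, rose (0.90, adjusted p = 0.00083, edgeR) and UBTF, which binds along active ribosomal DNA, fell (-0.62, adjusted p = 0.040). These 2 of 12 stand against 26.7% of all rows called, and DESeq2 called 1 of the 12. With shMETTL3, where the 45S row fell, 0 of 12 were called by edgeR or DESeq2, and 3 had an unadjusted p below 0.05. With shMETTL14 the catalytic subunits POLR1A (0.45, adjusted p = 0.037, edgeR) and POLR1B (0.81, adjusted p = 0.019) rose, and DESeq2 called neither. Of the 11 protein subunits of RNase P and RNase MRP, 7 were tested and 0 were called by edgeR or DESeq2 in these 3 comparisons, at medians of 0.22, 0.33 and 0.12. Unadjusted p below 0.05 was reached by 0, 2 and 1 of them. The share of all rows at that cut, which is at least the adjusted share, was not counted, here or for the other lists.

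The proteins that bind 7SK and signal recognition particle RNA were also tested. Of the 7SK list 1 of 7 was called in each comparison by edgeR, against 26.7%, 23.7% and 21.3% of all rows. DESeq2, which called fewer of all rows, also called 1 of 7 in each. Of these 7 genes of the 7SK particle and its target kinase, CCNT1, encoding cyclin T1, rose from control to shControl (0.79, adjusted p = 0.0021, edgeR), CDK9, encoding the kinase, fell with shMETTL3 (-1.38, adjusted p = 0.0020), and LARP7, encoding the protein that holds the end of 7SK, fell with shMETTL14 (-1.78, adjusted p = 0.0014). Of 8 genes of the signal recognition particle and its receptor, 3 rose from control to shControl: SRPRB (1.01, adjusted p = 0.00071, edgeR), SRP54 (0.97, adjusted p = 7.2e-05) and SRPRA (0.83, adjusted p = 0.00039). With shMETTL3, SRPRB fell (-0.69, adjusted p = 0.018, edgeR), and with shMETTL14, SRP9 (-0.62, adjusted p = 0.040), SRP54 (-0.59, adjusted p = 0.011) and SRPRA (-0.52, adjusted p = 0.023) fell, against 12.4% and 12.3% of all rows called lower. DESeq2 called 3 of the 8 from control to shControl and 0 in either knockdown, where 3 and 4 had an unadjusted p below 0.05 in edgeR.

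The rows whose log2 CPM followed each member most closely over the 8 libraries were found among 3863 rows (3862 for RNA45SN5) with a mean of at least 100 counts. For RNA45SN5, with LOC100507412 left aside, they were HLA-C, SPTAN1 and ITPRIPL2 (Pearson's r 0.95, 0.94 and 0.94). For RMRP they were ATP6AP1, RSU1 and TRPV2 (r 0.97, 0.97 and 0.97). For RPPH1 they were CDKN2B-AS1, FAM120B and DCBLD1 (r 0.98, 0.98 and 0.98), and CDKN2B-AS1, an antisense RNA of the 9p21 locus, had log2 fold changes of 0.90, 0.84 and -0.02 in the 3 comparisons. These values were picked as the highest of all rows and are a description only.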

How the data were processed

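The authors aligned fastGRO-seq reads of 8 libraries to hg19, per the labels (STAR is named in the submitters' processing notes), and counted them per gene body with HOMER, per the file header. The deposited counts are not normalized, and each library has its own column. The counting command asked for 1 strand, but the counts do not separate strands. Annotation columns of the table (gene length and number of copies) were deposited beside the counts. Counts were compared in edgeR 4.0.16 (R 4.3.3, limma 3.58.1), with the counts outside rows starting RNA45S, RNA28S, RNA18S or RNA5 as library size (3054077 to 3423491), TMM on those rows, filterByExpr with a minimum count of 10 and 1 quasi-likelihood fit over 4 groups. Only RNA45SN5 of the ribosomal rows entered it, and the other ribosomal rows were tested in a fit that kept every one of them. Of 27945 rows, 6423 had no count and 12679 were tested. The threshold was a Benjamini-Hochberg adjusted p of 0.05. The biological coefficient of variation was 10.5%, which with 2 libraries a group sets the precision. The members, lists and tests were chosen with earlier results of these data known. The rows named are the 6 members, METTL3, METTL14, from each list the up to 3 called genes with the largest change and a mean of at least 20 counts, non-coding list RNAs with that mean, neighboring rows within 5 kb and the 3 rows most alike. Other list genes (such as MAF1, RNU6ATAC, RNU11 and RNU4ATAC), RPS29, 5.8S, the small RNA sum and the alternatives that change LOC100507412, the rows used for TMM or the 45S row were chosen after values were seen. Sequences were read from GRCh37 with Biopython 1.88, and shares of motifs from RefSeq promoters. Alternatives were DESeq2 1.42.0, other library sizes and factors, filters of none or 10 counts in every library, a replicate block, fits of the compared groups alone and leaving out each library. Tests were tried on simulated data. Plots used matplotlib 3.10.9.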

Additional observations from a re-analysis of the deposited data

Results flagged for a closer look

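The effect of METTL14 knockdown differed from that of METTL3 knockdown, by edgeR's direct test between the 2 senescent groups (35.7% of tested rows passed it), for the following rows. RPPH1 was lower with shMETTL14 by a log2 fold change of -0.90, RN7SL3 by -1.17 and the 5.8S row by -2.26. The 18S row was higher with shMETTL14 by 0.50 and the part of the 45S row outside 28S by 0.59. CCDC107, beside RMRP, was higher by 1.34, and ARHGEF39, which overlaps it, by 2.40. Of the polymerase genes, CRCP was higher by 1.36, POLR1D by 1.14, UBTF by 1.07, POLR1A by 0.57 and RRN3 by 0.48, and POU2F1 was at -0.51. CDK9 was higher by 1.23, SRPRB by 0.96, and LARP7 was at -1.27. Their causes were not tested.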

How the results depend on the processing

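RMRP and RPPH1 kept their rise from control to shControl cells in 17 of 17 and 16 of 17 alternatives, and the 45S row in 16 of 22. The fall of the 45S row with shMETTL3 kept its call in 22 of 22, and the lower RPPH1 with shMETTL14 than with shMETTL3 in 17 of 17. The 22 alternatives of the 45S row include each of the other 45S rows put in its place. Their counts are identical to its own, so these are no separate check. Of the 3 members, 1 in place of 3 was called from control to shControl cells with the library size of all rows. That setting called 752 of all tested rows higher and 5007 lower, against 1797 and 1588 in the main fit. With shMETTL14 against shControl, 1 in place of 0 was called without TMM, with TMM over every row, with the library size of all rows, with upper quartile factors, without a filter, with the replicate block and with DESeq2. Of all rows, the main fit called 1142 higher and 1560 lower there. Without TMM these were 2480 and 942, with the library size of all rows 3163 and 710, and with DESeq2 499 and 876. The other settings just named called 1088 to 1174 higher and 1559 to 1612 lower. Between the knockdowns, 2 in place of 1 were called without TMM, with the library size of all rows, without a filter, with the replicate block, with LOC100507412 and TMM left out, and with DESeq2. Of all rows, the main fit called 4532 there. Higher and lower calls were 2023 and 2449 without TMM and 1177 and 3486 with the library size of all rows. Without a filter they were 2232 and 2252, and with the replicate block 2227 and 2294. With LOC100507412 and TMM left out they were 3192 and 1654, and with DESeq2 1062 and 1613. RPPH1 with shMETTL14 against shControl turned to 0.029 without TMM, 0.14 with the library size of all rows and 0.054 without shMETTL14 replicate 1. RMRP with shMETTL3 against shControl turned to -0.27 without shMETTL3 replicate 1. RMRP between the knockdowns turned to 0.078 with LOC100507412 and TMM left out, 0.44 without shMETTL3 replicate 1 and 0.03 without shMETTL14 replicate 1. The causes were not tested.

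Of all tested genes, an adjusted p below 0.01 called 2251 from control to shControl cells, 1732 with shMETTL3, 1572 with shMETTL14 and 2989 between the knockdowns. The library size of all rows called 5759 and 5638 in the first and second of these. DESeq2 called 1944, 1541, 1375 and 2675 in the same order, and 3245 and 3253 for shMETTL3 and shMETTL14 against control. Leaving out 1 library at a time gave 1825 to 2414 calls from control to shControl cells, 1471 to 3977 with shMETTL3, 1230 to 2002 with shMETTL14, 2380 to 5367 between the knockdowns, and 3683 to 5922 and 3541 to 4205 for shMETTL3 and shMETTL14 against control. The members called then numbered, in the same order, 2 to 3, 1 to 3, 0 to 2, 2 to 3, 2 to 2 and 1 to 3. Where a group kept 1 library, it was assumed to vary like the others. RMRP between shMETTL3 and shControl ranged from -0.27 to 0.67, RMRP between the knockdowns from -0.49 to 0.44, and RPPH1 between shMETTL14 and shControl from -0.49 to 0.054.

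The share of calls that were higher moved with the scaling: from 53.1% to 22.0% without TMM, 13.1% with the library size of all rows and 40.1% with LOC100507412 and TMM left out (control to shControl cells); from 47.8% to 79.0%, 93.7%, 59.3% with upper quartile factors, 58.5% with DESeq2 and 38.9% with LOC100507412 and TMM left out (shMETTL3); and from 42.3% to 72.5%, 81.7% and 56.5% (shMETTL14, in the order of the first). Between the knockdowns it moved from 49.3% to 25.2% with the library size of all rows and 65.9% with LOC100507412 and TMM left out, and against control from 49.8% to 34.2% (shMETTL3, the latter scaling) and from 50.5% to 37.2% (shMETTL14, the former). Libraries share only a replicate number, and the correlations of same-numbered deviations lay between -0.04 and 0.12. With the replicate block, the 45S row passed with shMETTL14 against shControl (-0.38, adjusted p = 0.040, edgeR) and between the knockdowns (0.35, adjusted p = 0.042). A sum of RN7SL1 and RN7SL2 was not run. With 2 libraries a group, depth was not the limit for the members, which had at least 1568 counts in every library, whereas METTL14, PARP2 and CCDC107 had few.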

Other observations

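Of 19 small nuclear RNAs made by polymerase II, 6 had a row that was tested, and 2 of these, RNU5D-1 and RNU5E-1, held identical counts in every library and are 1 measurement. In each knockdown against shControl edgeR called 2 higher and 1 lower, and DESeq2 called 1 of the 6. Of all tested rows edgeR called 11.3% higher and 12.4% lower with shMETTL3, and 9.01% and 12.3% with shMETTL14. DESeq2 called fewer, 901 higher and 640 lower with shMETTL3, and 499 and 876 with shMETTL14. The 2 called higher were U12 and U11 of the minor spliceosome, both with few counts. RNU12 had 9 and 6 counts in shControl cells, against 75 and 12 after METTL3 knockdown, 51 and 55 after METTL14 knockdown, and 21 and 10 in control. The log2 fold change over shControl was 2.29 with shMETTL3 (adjusted p = 0.0075, edgeR) and 2.63 with shMETTL14 (adjusted p = 0.0020). With shMETTL3 it rested on replicate 1, at 23.8 CPM, since replicate 2 was at 3.49 CPM against 3.36 and 2.10 CPM in shControl cells. RNU11 had 5 and 6 counts in shControl cells, 31 and 15 after METTL3 knockdown and 29 and 21 after METTL14 knockdown, with log2 fold changes of 1.80 (adjusted p = 0.017, edgeR) and 1.99 (adjusted p = 0.0084). RNU4ATAC, also of the minor spliceosome, was not called (0.30 and 1.07, adjusted p = 0.81 and 0.28, edgeR). RNU5F-1 was the row called lower (-0.76 and -0.98, adjusted p = 0.00010 and 4.4e-06, edgeR), but the table places it at chr1:220046619-220292777, a span far longer than that RNA, so its counts are not those of U5 alone. The same holds for RNU5D-1 and RNU5E-1, whose rows span 245255 and 245256 bases and were not called in either knockdown (0.35 and -0.15, adjusted p = 0.071 and 0.52, edgeR).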
